A study of Mus musculus with 18 samples.

Results

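Inhibitory receptors are the brakes of T cells, and the antibody given to every mouse here blocks 1 of them. The 8 genes described are Pdcd1, which encodes the antibody's target PD-1, the receptor genes Lag3, Havcr2 (TIM-3), Tigit, Ctla4 and Cd160, the ectoenzyme gene Entpd1 (CD39) and the transcription factor gene Tox. They were chosen by name as the genes of T cell inhibition and exhaustion, and are 8 of the 46983 gene IDs in each table.

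RNA was measured in cells sorted from tumours of MC38, a colon carcinoma line of the mouse, grown under the skin of C57BL/6 females injected at 6 weeks of age. One arm received anti-PD-1 plus D18 (D18 libraries), an agent known here by its code name, and the arm it was set against received anti-PD-1 alone. Both arms got 200 µg of anti-PD-1 per mouse 2 times per week for 2 weeks from a mean tumour volume of 100 mm3, and D18 was given at 25 µg per mouse 1 time per week. CD8+ T cells, T helper cells (the CD4 sort) and dendritic cells (the DC sort) each gave 3 libraries per arm, 18 in all, and no sample without anti-PD-1 was analysed here. Mice were pooled and then divided into arms, and nothing in the labels ties a replicate to a mouse of its own. The p-values therefore speak of the spread between these libraries, which may be technical.

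After activation, T cells place inhibitory receptors on their surface, and when antigen persists, as in tumours and chronic infection, they keep several at once in a state called exhaustion. PD-1 recruits phosphatases that damp signalling from the T cell receptor and CD28. Tox supports the exhausted state, and NFAT, a factor activated by calcium after receptor engagement, is known to drive transcription of Pdcd1. TIM-3 and CD39 are also made by macrophages and dendritic cells, so their RNA need not come from a T cell.

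Promoters of 3 of the genes are shown because the levels of Pdcd1 and Tigit moved closely together across the libraries while those of Havcr2 did not. Each is 300 bases, from 250 before to 50 after the start, from RefSeq on GRCm38.p6, printed 5′ to 3′ on the gene's strand, with capitals at GGAAA, the core letters that NFAT binds, or at its reverse complement TTTCC. Pdcd1 lies at chr1:94052504-94052803 on the minus strand, Tigit at chr16:43664135-43664434 on the minus strand, and Havcr2 at chr11:46454681-46454980 on the plus strand.
Pdcd1: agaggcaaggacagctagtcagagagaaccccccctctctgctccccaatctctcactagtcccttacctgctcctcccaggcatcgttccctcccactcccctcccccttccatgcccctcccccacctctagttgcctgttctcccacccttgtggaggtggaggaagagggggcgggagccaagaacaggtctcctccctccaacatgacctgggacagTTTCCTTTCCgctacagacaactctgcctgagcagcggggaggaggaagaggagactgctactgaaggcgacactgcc
Tigit: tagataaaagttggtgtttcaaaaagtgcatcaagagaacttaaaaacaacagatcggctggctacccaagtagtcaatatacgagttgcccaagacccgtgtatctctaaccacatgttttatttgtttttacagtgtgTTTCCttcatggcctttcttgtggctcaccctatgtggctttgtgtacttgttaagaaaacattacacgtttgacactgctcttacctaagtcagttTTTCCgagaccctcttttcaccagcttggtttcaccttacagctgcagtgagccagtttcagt
Havcr2: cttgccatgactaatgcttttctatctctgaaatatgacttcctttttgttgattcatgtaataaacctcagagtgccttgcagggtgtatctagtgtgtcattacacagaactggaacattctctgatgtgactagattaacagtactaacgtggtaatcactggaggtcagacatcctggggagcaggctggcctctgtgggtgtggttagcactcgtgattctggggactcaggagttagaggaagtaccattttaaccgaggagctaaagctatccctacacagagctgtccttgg
The Pdcd1 and Tigit promoters held 2 matches each, and the Havcr2 promoter held none. The count did not follow the likeness to Pdcd1: Ctla4 had 1 match, Entpd1, which moved with Pdcd1 least, had 0 and 2 in its 2 promoters, and Cd160 had 0 and 1. Over 32851 promoters of the same length 61.3% held at least 1 match on either strand and 26.7% at least 2, so these letters are common. The Havcr2 promoter held 1 match of TGANTCA, the AP-1 motif, which 7.81% of promoters hold, and both the Havcr2 and Tigit promoters held 1 of TGTGGT, the RUNX motif, which 16.8% hold. A match is a description of the letters and not a binding site.

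Depth limits every value below. Libraries held 11170 to 266392 reads assigned to genes, and a count of 0 allows up to 3 reads, a limit that covers counting error only because the reads carry no molecular identifiers. Markers went against the sort labels in part. Lyz2, a myeloid gene, had reads in every CD8 and CD4 library. In the CD8 sort its reads ran from 11 in D18 replicate 1 to 961 in anti-PD-1 replicate 2. These stood beside 37 and 116 reads of Cd3e, which encodes part of the CD3 complex of T cells. CD4 anti-PD-1 replicates 1 and 2 held 0 and 1 reads of Cd3e. The libraries numbered 3 stood apart, since those of the DC sort held 69 (D18) and 34 (anti-PD-1) reads of Cd3e while the other 4 DC libraries held none. All 3 D18 libraries and anti-PD-1 replicate 3 of every sort held reads of the mitochondrial genes mt-Co2, mt-Atp6 and mt-Co3 (5 to 334 in sum), whereas anti-PD-1 replicates 1 and 2 of every sort held 0. With that set of libraries as a term, a change compares the D18 libraries with anti-PD-1 replicate 3 alone. In bulk RNA, fewer cells of a type and less RNA per cell cannot be told apart.

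In the CD8 sort, the RNA of most of these genes was lower with D18, and Pdcd1 had the largest change relative to its standard error. Pdcd1 lay 2.05 lower on the log2 scale of normalised reads, and per read of Cd3e its groups did not overlap, as was so for 5.54% of all genes (lower with D18). Of the 7 genes with a mean of at least 10 normalised reads, 6 were lower with D18 and 1, Havcr2, was higher, where 811 of the 1569 genes tested were lower. By limma without a block no gene of the sort passed an adjusted p of 0.05 (0% of genes). With the replicate number as a block Pdcd1 passed, 1 of the 7, where 0.701% of all genes passed as lower with D18. That call was lost without both libraries numbered 3 (adjusted p = 0.203 by limma). In the pairs numbered 1 and 2 the block cannot tell the arm from the mitochondrial set of libraries.

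**Figure D1:**
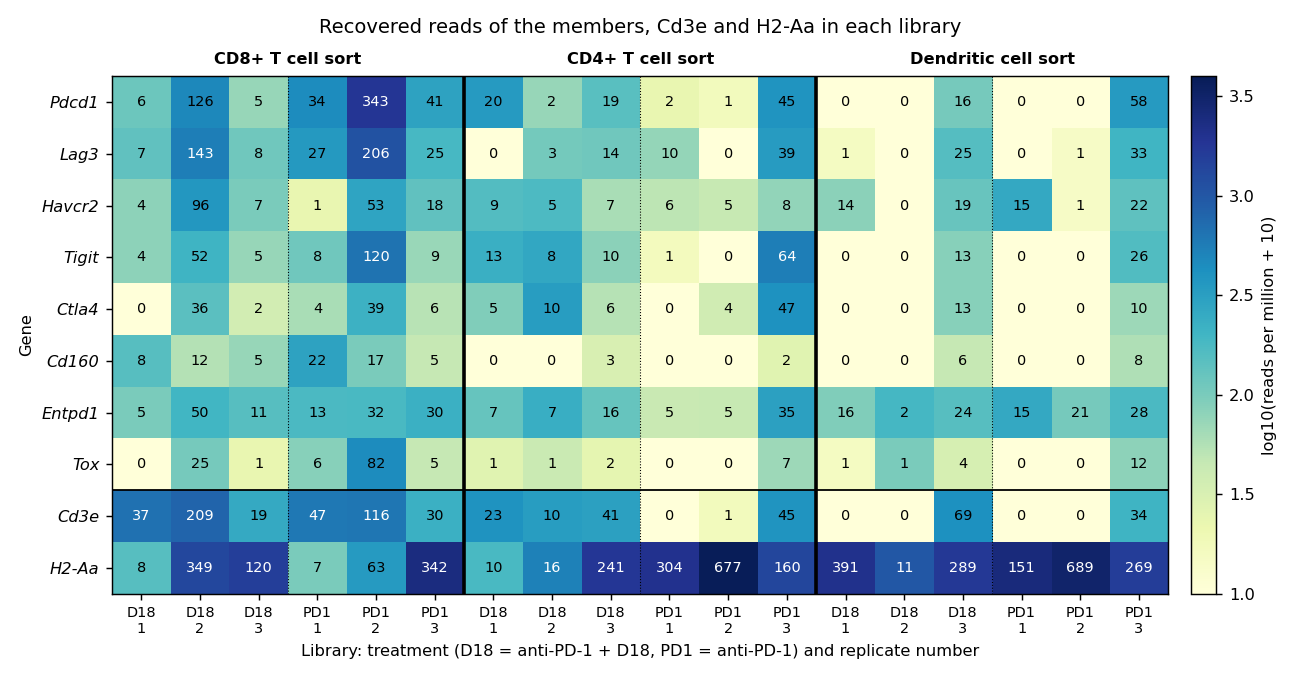
Recovered reads (numbers) and log10(CPM + 10) (colour) of the 8 genes, Cd3e and H2-Aa in each of the 18 libraries, with D18 libraries left of anti-PD-1 libraries in each sort. In the CD8 sort Pdcd1 had 6, 126 and 5 reads with D18 and 34, 343 and 41 with anti-PD-1, and in the DC sort reads of Pdcd1 are in the libraries numbered 3 alone.

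Pdcd1 (ENSMUSG00000026285.7, minus strand of chr1, 94038305 to 94052553 on mm10) had 6, 126 and 5 reads in CD8 D18 replicates 1, 2 and 3, against 34, 343 and 41 reads in anti-PD-1 replicates 1, 2 and 3. In CPM, reads scaled to the total of the library, these were 107, 473 and 64.1 CPM with D18 and 435, 1808 and 286 CPM with anti-PD-1. Replicate 2 of each arm was the high library, D18 replicate 2 lay above the 2 lower anti-PD-1 libraries, and each D18 library lay below the anti-PD-1 library of its own number. The means were 215 ± 225 CPM with D18 and 843 ± 839 CPM with anti-PD-1 (SD, n = 3 each).

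On log2(normalised reads + 1), the scale of all limma changes here, Pdcd1 differed by -2.05 ± 0.77 (SE), with an unadjusted p of 0.0286 and an adjusted p of 0.564 by limma. At an unadjusted p under 0.05, 5.1% of genes were lower with D18 in this sort. Libraries of the same number deviated together in the CD8 sort, with correlations of 0.36, 0.51 and 0.56, so the replicate number was also fitted as a block. The change of Pdcd1 then had an SE of 0.31 and an adjusted p of 0.0141 by limma. In pairs 1 and 2 the D18 library held mitochondrial reads (45 and 60) and the anti-PD-1 library held 0. The block cannot tell the arm from that set in these pairs, and the pairing itself was taken from the correlations. Without both libraries numbered 3 the blocked change was -2.03 ± 0.36 (SE). With the mitochondrial set as a term it was -1.23 ± 1.11, and left out 1 at a time the libraries moved the unblocked change over -2.73 to -1.34, the smallest without anti-PD-1 replicate 2.

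Lag3, a receptor for MHC class II, had 7, 143 and 8 reads in CD8 D18 replicates 1, 2 and 3 and 27, 206 and 25 reads in the anti-PD-1 replicates. Its levels were 125, 537 and 103 CPM with D18 and 345, 1086 and 174 CPM with anti-PD-1. Each D18 library was again below the anti-PD-1 library of its number, while the groups overlapped through D18 replicate 2. The change was -1.14 ± 0.71 (adjusted p = 0.671 by limma, and 0.125 with the block). It was -0.50 without anti-PD-1 replicate 2, -1.74 without D18 replicate 2 and -0.21 with the mitochondrial set as a term.

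Tigit, whose protein binds CD155 on tumour and antigen-presenting cells, had 4, 52 and 5 reads with D18 and 8, 120 and 9 reads with anti-PD-1 in the CD8 sort. Most of its reads came from replicate 2 of each arm. The change was -0.79 ± 0.77 (adjusted p = 0.736 by limma), and it was 0.10 without anti-PD-1 replicate 2 and 0.25 with the mitochondrial set as a term, so its direction turned.

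Ctla4 encodes a receptor that competes with CD28 for CD80 and CD86. It had 0, 36 and 2 reads with D18 and 4, 39 and 6 reads with anti-PD-1 in the CD8 sort, a mean of 8.08 normalised reads, and was below the limit for testing. D18 replicate 1 held none in 55823 reads, which allows up to 53.7 CPM, above the 51.1 CPM of anti-PD-1 replicate 1.

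Cd160, a receptor of cytotoxic lymphocytes that binds HVEM, had 8, 12 and 5 reads with D18 and 22, 17 and 5 reads with anti-PD-1. Its highest level, 281 CPM, was in anti-PD-1 replicate 1, and replicate 3 of each arm held 5 reads. The change was -0.42 ± 0.77 (adjusted p = 0.870 by limma), 0.23 without anti-PD-1 replicate 1 and 0.66 with the mitochondrial set as a term.

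Havcr2 went the other way. It had 4, 96 and 7 reads with D18 and 1, 53 and 18 reads with anti-PD-1, a change of 0.50 ± 0.99 (adjusted p = 0.881 by limma). Without anti-PD-1 replicate 1, which held 1 read, the change was -0.61, and with the mitochondrial set as a term it was -0.25.

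Entpd1, which encodes the enzyme CD39 that breaks down extracellular ATP, was the steadiest of the 8 in this sort. It had 5, 50 and 11 reads with D18 and 13, 32 and 30 reads with anti-PD-1, or 139 ± 49.1 CPM with D18 and 181 ± 24.1 CPM with anti-PD-1 (SD, n = 3 each). The change was -0.50 ± 0.43 (adjusted p = 0.726 by limma), -0.21 without D18 replicate 1 and -0.27 without anti-PD-1 replicate 3, and the CPM of the arms overlapped. With the mitochondrial set as a term the change was larger, at -0.95.

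Tox had 0, 25 and 1 reads with D18 and 6, 82 and 5 reads with anti-PD-1. Its change of -2.19 ± 1.61 was the largest of the 7 in size and had the widest error (adjusted p = 0.702 by limma, and 0.266 with the block). It was -0.98 with the mitochondrial set as a term, and -1.30 without anti-PD-1 replicate 2. The arms overlapped through the 25 reads of D18 replicate 2.

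**Figure D2:**
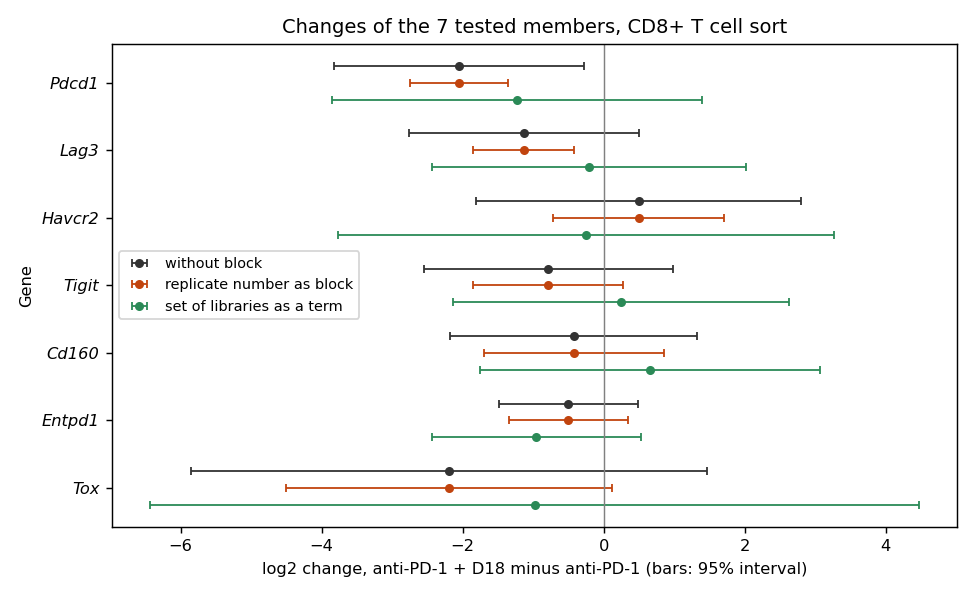
Change of the 7 tested genes in the CD8 sort, as log2 of anti-PD-1 plus D18 minus anti-PD-1 (x axis, bars are 95% intervals from limma), without a block, with the replicate number as a block and with the mitochondrial set of libraries as a term. The blocked interval of Pdcd1 lies below 0, from -2.74 to -1.36, as does that of Lag3, from -1.86 to -0.41, and with the set as a term all 7 intervals include 0. The intervals are not adjusted for the number of genes. With the block 316 of 1569 genes, in either direction, had an unadjusted p under 0.05 by limma, and the adjusted p of Lag3 was 0.125.

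None of the 8 genes had groups that did not overlap on size-factor normalised reads in the CD8 sort, where 7.65% of genes were lower with D18 without overlap. The median change of the 7 tested genes was -0.79, beside -0.03 over all 1569 genes, and it was -0.25 with the mitochondrial set as a term, beside -0.10 over all genes. Markers of other cells moved as well: all 10 genes of a macrophage list were lower with D18 (median -2.29), at 1164 to 21297 CPM in sum with D18 and 19050 to 31812 CPM with anti-PD-1, with reads of 7 to 10 of the 10 genes in each library. The T cell list summed to 2936 to 9636 CPM with D18 and 2070 to 8017 CPM with anti-PD-1. The part of these differences in the results was not tested.

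Cd3e reads were used as a yardstick for how much of a library came from T cells. Per read of Cd3e, 7 of the 8 genes had a lower mean with D18 in the CD8 sort, as did 58.8% of all genes tested, and Havcr2 had a higher one. Ctla4, below the limit for testing, is not among all genes tested here and below. The ratio is log2((reads + 0.5)/(Cd3e reads + 0.5)), and its test is an exact two-sided permutation test, which cannot go below 0.10 for 3 libraries against 3.

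CD8 D18 replicates 1, 2 and 3 held 0.162, 0.603 and 0.263 reads of Pdcd1 per read of Cd3e, against 0.723, 2.96 and 1.37 in the anti-PD-1 replicates. Every D18 library lay below every anti-PD-1 library, with the highest D18 value at 0.603 (95% interval 0.479 to 0.756) and the lowest anti-PD-1 value at 0.723 (0.451 to 1.15), so that the neighbours' counting intervals overlap. The log2 difference was -2.21 ± 0.78 (SE), or 4.62-fold lower with D18, with the smallest p the exact permutation test allows (p = 0.10, and 0.40 after adjustment over the 8 genes).

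For Tox the ratios were 0, 0.120 and 0.0526 with D18 and 0.128, 0.707 and 0.167 with anti-PD-1, again without overlap. The log2 difference was -2.38 ± 1.22 (exact permutation p = 0.10, adjusted p = 0.40), and it rests on 0 and 1 reads in 2 of the D18 libraries. Lag3 was lower with D18 in each of the 3 numbers (0.189, 0.684 and 0.421 with D18 and 0.574, 1.78 and 0.833 with anti-PD-1), with a log2 difference of -1.28 ± 0.70 (exact permutation p = 0.20) that was -0.80 without D18 replicate 1. Tox was at -1.42 without that library.

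Ctla4, Tigit and Entpd1 were also lower in each number, by -1.51, -0.92 and -0.64 on the log2 scale (exact permutation p of 0.40, 0.40 and 0.50), and their arms overlapped. Each shrank with 1 library left out: Ctla4 was at -0.35 without D18 replicate 1, Tigit at -0.21 without anti-PD-1 replicate 2 and Entpd1 at -0.03 without anti-PD-1 replicate 3. Cd160 differed by -0.58 and was lower in 2 of 3 numbers, and Havcr2 differed by 0.42 and was lower in 1 of 3. By pairs of the same number the smallest p of an exact sign-flip permutation test is 0.25, and Pdcd1, Lag3, Tigit, Ctla4, Entpd1 and Tox were at it. These 6 of 8 genes were lower with D18 in each of the 3 numbers, as were 30% of all genes tested, and Cd3d was at the same p with a higher ratio in each number. Numbers 1 and 2 set D18 libraries with mitochondrial reads against anti-PD-1 libraries with 0. Other genes of CD3 and CD8 had mean differences of -0.01 ± 0.63 (SE) for Cd8a, 0.32 ± 0.39 for Cd8b1, 0.28 ± 0.29 for Cd3d and -0.03 ± 0.24 for Cd3g. The median over all tested genes was -0.17. Single libraries spread more, since Cd8a ran from 1.11 to 3.93 reads per read of Cd3e in the anti-PD-1 arm. On the limma scale the T cell list ran from -0.49 (Lck) to 2.25 (Cd5), beside 0.14 for Cd3e.

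**Figure D3:**
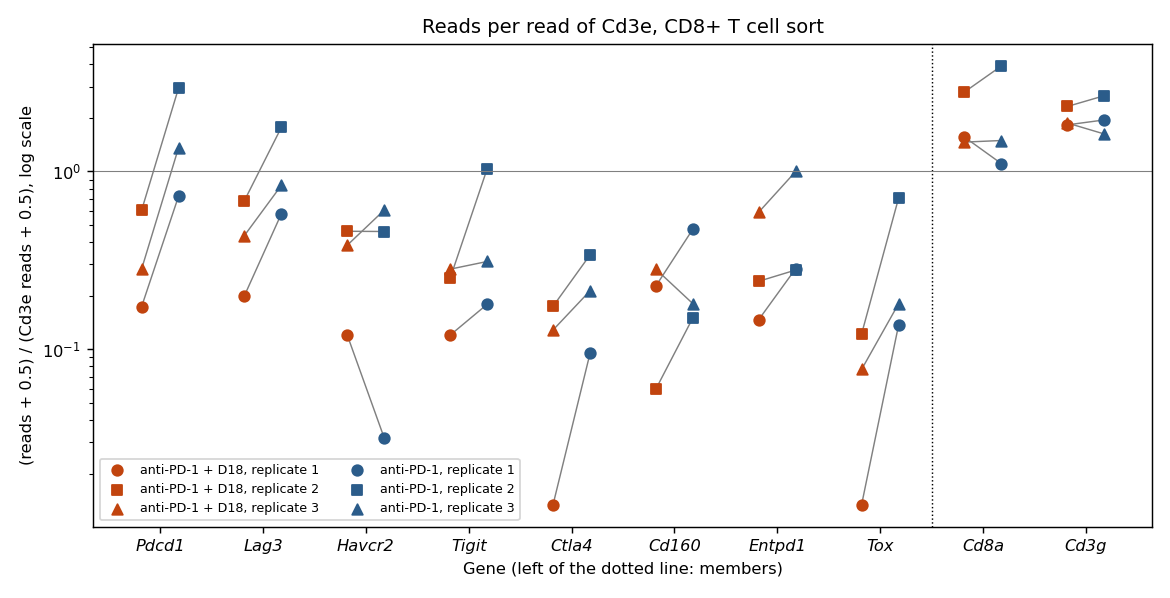
Reads of each gene per read of Cd3e in the 6 CD8 libraries (y axis, log scale, 0.5 added to both counts), D18 libraries left of anti-PD-1 libraries, with lines joining libraries of the same number. Pdcd1 and Tox are the 2 of the 8 genes whose arms do not overlap, where 5.54% of all genes tested were lower with D18 without overlap. Cd8a and Cd3g, right of the dotted line, show differences of -0.01 ± 0.63 and -0.03 ± 0.24 (SE) on the log2 scale.

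The other sorts gave few libraries with T cell RNA. In the CD4 sort, Pdcd1 had 20, 2 and 19 reads with D18 and 2, 1 and 45 reads with anti-PD-1, so that anti-PD-1 replicate 3 held nearly all reads of its arm. Tigit and Ctla4 were as uneven: Tigit had 13, 8 and 10 reads with D18 and 1, 0 and 64 with anti-PD-1, and Ctla4 had 5, 10 and 6 with D18 and 0, 4 and 47 with anti-PD-1. Foxp3, the factor that defines regulatory T cells, had 3, 4 and 5 reads with D18 and 0, 0 and 30 reads with anti-PD-1, high in the same library. Regulatory T cells are known for high Ctla4 and Tigit, and the part of Foxp3-bearing cells in these values was not tested.

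Of the 8 genes 4 could be tested in the CD4 sort, and none passed (0% of 966 genes did by limma, and 6.63% were lower with D18 at an unadjusted p under 0.05). Pdcd1 differed by 1.14 ± 1.37, Tigit by 1.62 ± 1.59, Ctla4 by 0.67 ± 1.54 and Entpd1 by 0.37 ± 0.81, with adjusted p-values of 0.741 to 0.906 by limma. Without anti-PD-1 replicates 1 and 2, the libraries with at most 1 read of Cd3e, all 4 turned to -1.35, -1.73, -1.82 and -1.03, a comparison with 1 anti-PD-1 library. A T cell list was higher with D18 in 10 of 10 tested genes, with a median of 2.84, and that median was -0.05 with the mitochondrial set as a term, which again leaves anti-PD-1 replicate 3.

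The other 4 genes were below the limit for testing in the CD4 sort. Lag3 had 0, 3 and 14 reads with D18 and 10, 0 and 39 reads with anti-PD-1, and Havcr2 had 9, 5 and 7 reads with D18 and 6, 5 and 8 reads with anti-PD-1. Havcr2 thus had 6 and 5 reads in the anti-PD-1 libraries with at most 1 read of Cd3e, beside 304 and 677 reads of the MHC class II gene H2-Aa. It was not alone in this, since Lag3 had 10 and 0 reads there, Entpd1 5 and 5, Ctla4 0 and 4 and Pdcd1 2 and 1. Cd160 had no read in 4 of the 6 libraries and 3 reads in D18 replicate 3 and 2 in anti-PD-1 replicate 3. Tox had 1, 1 and 2 reads with D18 and 0, 0 and 7 reads with anti-PD-1. Entpd1, which was tested, had 7, 7 and 16 reads with D18 and 5, 5 and 35 reads with anti-PD-1.

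Per read of Cd3e, the 4 CD4 libraries with at least 5 such reads gave Pdcd1 values of 0.870, 0.200 and 0.463 in D18 replicates 1, 2 and 3 and 1.00 in anti-PD-1 replicate 3. Tigit gave 0.565, 0.800 and 0.244 with D18 and 1.42 in that anti-PD-1 library, and Ctla4 0.217, 1.00 and 0.146 with D18 and 1.04. Each of these 9 D18 values was below the single anti-PD-1 value of its gene, and the same held for Lag3, Entpd1 and Tox, so for 6 of the 8 genes, as for 11% of the 966 genes tested. It did not hold for Havcr2, at 0.391, 0.5 and 0.171 with D18 and 0.178 with anti-PD-1, or for Cd160, at 0, 0 and 0.0732 with D18 and 0.0444 with anti-PD-1. Lag3, Havcr2, Cd160 and Tox were below the limit for testing and so are not among the 966 genes. With 1 library in the anti-PD-1 arm there is no test. D18 replicate 3 of this sort held 83 reads of Cd8a and 2 of Cd4, against its label.

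In the DC sort, RNA of most of these receptors was found almost wholly in the libraries numbered 3. Pdcd1 had 0, 0 and 16 reads with D18 and 0, 0 and 58 reads with anti-PD-1, and Tigit, Ctla4 and Cd160 likewise had reads in no other DC library. The 0 of DC D18 replicate 2, in 11170 reads, allows up to 269 CPM and so does not tell its level from the 94.5 CPM of D18 replicate 3. Lag3 had 1, 0 and 25 reads with D18 and 0, 1 and 33 reads with anti-PD-1, and Tox 1, 1 and 4 with D18 and 0, 0 and 12 with anti-PD-1.

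Havcr2 and Entpd1 were the 2 genes with more than 1 read in a DC library that held no Cd3e. Havcr2 had 14, 0 and 19 reads with D18 and 15, 1 and 22 reads with anti-PD-1. Entpd1 had reads in every library of the series, here 16, 2 and 24 with D18 and 15, 21 and 28 with anti-PD-1, and was the only one of the 8 that could be tested in this sort. Its change was -0.71 ± 0.57 (adjusted p = 0.604 by limma), where 0% of 886 genes passed and 4.74% were lower with D18 at an unadjusted p under 0.05. The arms did not overlap on normalised reads, as was so for 19.9% of the genes (lower with D18), but did in CPM (83.9, 179 and 142 with D18 and 252, 94.4 and 164 with anti-PD-1), and the median change of all 886 genes was -0.65.

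**Figure D4:**
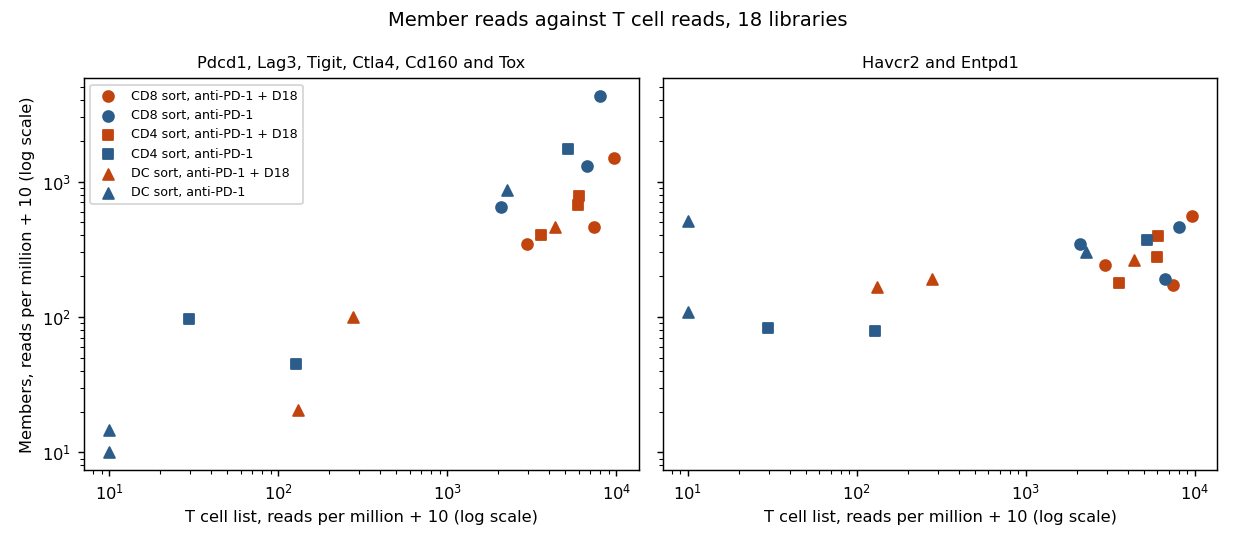
Summed CPM of 6 of the genes (left) and of Havcr2 and Entpd1 (right) against the summed CPM of the T cell list in the 18 libraries (both axes log scale, 10 CPM added). On the left the libraries without T cell reads lie lowest, while on the right DC anti-PD-1 replicate 1, which held no read of the T cell list, stands at 504 CPM before the 10 are added.

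The share of reads held by the same 6 and 2 genes differed between libraries. Havcr2 and Entpd1 made up 26.5%, 27.0% and 40.9% of the reads of the 8 genes in CD8 D18 replicates 1, 2 and 3 and 12.2%, 9.53% and 34.5% in the anti-PD-1 replicates. In the DC libraries numbered 1 they made up 93.8% with D18 and 100% with anti-PD-1. In those numbered 2 they made up 66.7% with D18, of 3 reads, and 95.7% with anti-PD-1. In the DC libraries numbered 3, which held T cell RNA, the shares were 35.8% with D18 and 25.4% with anti-PD-1. The CD4 sort was less clear, with 29.1%, 33.3% and 29.9% in D18 replicates 1, 2 and 3 and 45.8%, 66.7% and 17.4% in the anti-PD-1 replicates. CD4 anti-PD-1 replicate 1, with 0 reads of Cd3e, held 13 reads of the 6 genes, 10 of them of Lag3, beside 11 of Havcr2 and Entpd1.

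Across the 18 libraries Pdcd1 followed T cell genes. By Pearson's r of log2(CPM + 10) among 1354 genes with at least 200 reads in all, its nearest were Ets1 (0.93), Tigit (0.92), Cd3g (0.92), Trbc2 (0.91), Sh2d2a (0.91) and Cxcr6 (0.90). The points share libraries and depth, and they include libraries with and without T cell RNA. Tigit was nearest to Tnfrsf9 (0.96), Ctla4 to Tnfrsf18 (0.90), both of them costimulatory receptors, Lag3 to Prf1 (0.88), which encodes perforin, and Cd160 to Cd8b1 (0.90). Tox was nearest to Zap70 (0.77), a kinase of the T cell receptor pathway. Havcr2 was nearest to Rab11b (0.89) and Entpd1 to Tapbp (0.86), neither of them a T cell gene. Between the genes themselves, r with Pdcd1 was 0.82 for Lag3, 0.76 for Ctla4, 0.71 for Tox, 0.70 for Cd160, 0.49 for Havcr2 and 0.42 for Entpd1.

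Divided by exon length, the order of the levels differed between the arms of the CD8 sort. With D18 the highest means were Lag3 at 121 CPM per kb, Tigit at 120 and Pdcd1 at 111, and with anti-PD-1 they were Pdcd1 at 437, Tigit at 289 and Lag3 at 254. The other 5 genes lay at 4.67 (Tox) to 63.9 (Havcr2) CPM per kb with D18 and at 23.8 (Tox) to 51.2 (Cd160) CPM per kb with anti-PD-1. The SDs of the first 3 were close to their means, so neighbours in either order do not differ beyond their spread. Across groups Pdcd1 averaged most in the CD8 anti-PD-1 libraries, then in CD8 D18 (215 CPM), CD4 D18 (180 ± 141), CD4 anti-PD-1 (133 ± 213), DC anti-PD-1 (113 ± 196) and DC D18 (31.5 ± 54.6), with ranges that overlap between all neighbours.

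The libraries numbered 3 held T cell RNA in all 3 sorts and allow the arms to be set side by side within the same set of libraries, as 1 library per arm and sort with no test. This view was chosen after the values were seen. Pdcd1 per read of Cd3e was 0.263 with D18 and 1.37 with anti-PD-1 in the CD8 sort, 0.463 with D18 and 1.00 with anti-PD-1 in the CD4 sort, and 0.232 with D18 and 1.71 with anti-PD-1 in the DC sort. It was lower with D18 in each.

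Of the 8 genes, 7 were lower with D18 in all 3 sorts on this scale, and so were 26.3% of the 727 genes tested in every sort. Only Entpd1 of the 8 is among the 727, which average at least 10 normalised reads in each sort. That share is thus of more abundant genes than most of the 8. By sort the shares of all tested genes that were lower were 60.5% (CD8), 35.4% (CD4) and 93% (DC). Cd160 was the exception, at 0.263 with D18 and 0.167 with anti-PD-1 in the CD8 sort and 0.0732 with D18 and 0.0444 with anti-PD-1 in the CD4 sort, on 2 to 5 reads. In the CD4 sort Tigit was at 0.244 with D18 and 1.42 with anti-PD-1, Ctla4 at 0.146 with D18 and 1.04 with anti-PD-1, and Havcr2 at 0.171 with D18 and 0.178 with anti-PD-1. The 2 CD4 libraries numbered 3 differed in their markers. D18 replicate 3 held 83 reads of Cd8a, 2 of Cd4 and 5 of Foxp3, and anti-PD-1 replicate 3 held 15, 20 and 30. The part of this difference in the CD4 ratios was not tested. Of 10 T cell genes with at least 5 reads per pair 2 were lower in all 3 sorts, and of 9 costimulatory receptor genes 5 were, among them Tnfrsf9, Tnfrsf4 and Tnfrsf18. The 6 libraries go against their sort labels in part, so the sorts are not independent cell types here.

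**Figure D5:**
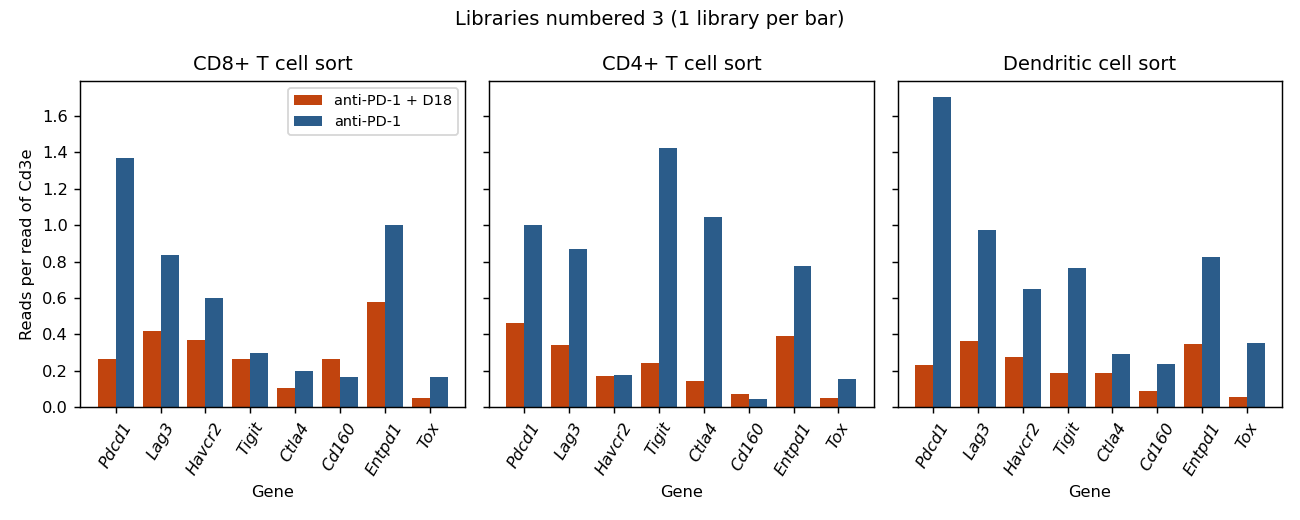
Reads of each gene per read of Cd3e in the libraries numbered 3 (1 library per bar), D18 left of anti-PD-1, in the CD8, CD4 and DC sorts. Bars of Pdcd1 stand at 0.263, 0.463 and 0.232 with D18 and at 1.37, 1.00 and 1.71 with anti-PD-1, and Cd160 is higher with D18 in the CD8 and CD4 sorts.

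Genes of the same pathway were counted from lists of ligands, other inhibitory receptors, signalling genes, exhaustion regulators and costimulatory receptors. In the CD8 sort none of them passed without the block. Of 15 other inhibitory receptors 6 were tested, with 2 higher and 4 lower: Cd72, a B cell and myeloid receptor, at -3.14 ± 1.07, was the gene that passed with the block (adjusted p = 0.0382 by limma), Cd5 was at 2.25 ± 0.64, Lair1 at -1.36 ± 0.92 and Vsir at -0.67 ± 0.73. Of 10 tested signalling genes 4 were higher and 6 lower, with Ptpn6, which encodes the phosphatase SHP-1, at -2.93 ± 1.11 and the diacylglycerol kinase gene Dgka at 1.28 ± 0.72.

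Of the exhaustion regulators 5 were tested in the CD8 sort, 4 higher and 1 lower. Tcf7, the factor of stem-like exhausted T cells, was at -1.68 ± 1.10, Nr4a1, a gene of recent receptor signalling, at 1.09 ± 0.79, Id2 at 0.69 ± 0.47 and Runx3 at 0.30 ± 0.61. The costimulatory receptor genes split 3 higher to 2 lower, with Icos at 1.92 ± 1.21 and Tnfrsf18 (GITR) at -1.23 ± 0.45. Ligand genes split 4 higher to 2 lower, and H2-Aa and H2-Ab1, which encode the MHC class II that LAG-3 binds, were at 0.55 ± 1.38 and 1.18 ± 1.31. With the mitochondrial set as a term these 2 turned to -2.17 and -1.70. The medians of 3 lists turned too: ligands were at -1.10 and 0.35 with and without the term, other inhibitory receptors at 0.04 and -0.43, and signalling genes at 0.19 and -0.11. The adjusted p-values of the genes named from these lists started at 0.534 (Cd5) by limma without the block.

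In the CD4 sort all 6 tested costimulatory receptor genes were higher with D18, led by Icos at 3.37 ± 1.25, and 5 of 6 ligand genes were lower, led by H2-Aa at -2.69 ± 0.97. Cell type markers moved with them: the T cell list was higher in 10 of 10 tested genes (median 2.84), the macrophage list lower in 10 of 10 (median -1.41) and the dendritic cell list lower in 3 of 3 (median -2.47), and their part in these values was not tested. With the mitochondrial set as a term, which leaves anti-PD-1 replicate 3 as the anti-PD-1 arm, the medians of the 2 lists were -0.89 and -0.85. In the DC sort all 6 ligand genes were lower, with Hmgb1 at -1.79 ± 1.12 and Lgals9, which encodes a TIM-3 ligand, at -1.53 ± 0.79, beside the median of -0.65 over all genes. None passed an adjusted p of 0.05 by limma in either sort.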

How the data were processed

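Per the labels, sorted cells were lysed and prepared by Smart-Seq2, a method that does not mark the strand. The build mm10, STAR 2.4.0, HTSeq 0.6.1 and DESeq2 are named, per the submitters' processing notes, with no role given and no version of DESeq2. The tables the authors deposited hold log2 values, 1 table per sort, with a gene without reads at the table's minimum; the transform is not stated in them.

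Taking it as a variance-stabilising transform and undoing it, then dividing by the smallest value above 0 in a library, gave whole reads for 100% of values within 0.001. CPM are over recovered reads. The size factors of the tables were kept. limma 3.58.1 in R 4.3.3 (trend, robust) was fitted per sort on log2(normalised reads + 1) for genes with a mean of at least 10, Benjamini-Hochberg adjusted over all genes tested. The fit was also run on simulated independent counts. Those had no mixture of cells, no pairs and no mitochondrial set, so the simulation does not cover these features of the libraries. The fold change understates that of low genes. A count test was not run on the recovered reads, since the deposited unit is log2. Same-numbered libraries correlated above 0.1 in all 3 pairs of the CD8 sort, which is where the pairing comes from, and not in all pairs of the other sorts. Exons of Cd160 and Tox share 2.57% and 3.42% of their bases with a gene on the other strand. Symbols were matched for 46488 IDs (98.9%), and promoters for 6 of the 8 genes. Ratios, intervals and figures came from scipy 1.17.1, pandas 2.3.3, matplotlib 3.10.9 and numpy 2.4.6 under Python 3.11.15. All 18 libraries were grouped by their labels. Alternatives were other scalings, filters, pseudocounts and denominators, voom, the block, the mitochondrial set and libraries left out.

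Named were all 8 genes, the 4 tested genes of each pathway list with the largest change (not all printed), fixed reference genes and the nearest genes by r. The genes, lists and tests were chosen with earlier results of these data known.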

Additional observations from a re-analysis of the deposited data

How the results depend on the processing

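In the CD8 sort no gene passed by limma at an adjusted p of 0.05 (130 did at an unadjusted p under 0.05), against 20 with the replicate block (9 of them higher with D18), 15, 28 and 1 with the block and without both libraries numbered 1, 2 and 3, 1 on the deposited log2 values, 22 without a filter, and 0 to 2 with each library left out. The change of Pdcd1, -2.05 with an adjusted p of 0.564, passed with the block (adjusted p = 0.0141), without a filter (-2.05, adjusted p = 0.0469) and with the block without the libraries numbered 1 (-2.11, adjusted p = 0.00487) or 2 (-2.02, adjusted p = 0.0473), but not without those numbered 3 (0.203), and over the other alternatives its adjusted p ran from 0.495 to 1. In the CD4 sort (0 called, 100 at an unadjusted p under 0.05) 29 passed without a filter, 34 without both libraries numbered 3 and 0 to 19 with each library left out, the 19 without anti-PD-1 replicate 3. In the DC sort (0 called, 61 at an unadjusted p under 0.05) no alternative called a gene. limma-voom called 0 in each sort, and by it the CD8 change of Pdcd1 was -1.32 ± 0.84 (SE, unadjusted p = 0.158). By limma without the block its unadjusted p was 0.0679 without both libraries numbered 3. It was 0.0850 without D18 replicate 1, 0.0937 without D18 replicate 3 and 0.0916 without anti-PD-1 replicate 2. Leaving out any other single library kept it under 0.05. The block changed no call in the CD4 and DC sorts, where same-numbered libraries correlated at -0.14, 0.15 and -0.20 and at 0.03, -0.09 and 0.14.

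With the mitochondrial set as a term, the signs turned for Havcr2 (-0.25), Tigit (0.25) and Cd160 (0.66) in the CD8 sort and for Pdcd1 (-1.35), Tigit (-1.73), Ctla4 (-1.82) and Entpd1 (-1.03) in the CD4 sort. The last 4 had the same values without the libraries with at most 1 read of Cd3e. Havcr2 also turned (-0.18) with the block and without the libraries numbered 1. With each library left out, the CD8 changes ran from -0.61 to 1.24 (Havcr2), -1.30 to 0.10 (Tigit) and -0.97 to 0.23 (Cd160), the CD4 changes from -0.58 to 1.91 (Ctla4) and -0.13 to 1.08 (Entpd1), and the ratios to Cd3e from -0.93 to 1.20 (Havcr2) and -1.01 to 0.11 (Cd160). The cause was not tested. The other denominators and pseudocounts kept the sign of all 8 ratios, from -2.37 to -2.15 for Pdcd1. Depth limits most of these genes to under 10 reads in several libraries.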
